A study of Mus musculus with 16 samples.

Results

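The genes described here are 10 members of the circadian clock and its PAR bZIP output arm, measured by RNA-seq in ear skin of 16 mice. They were chosen by symbol (Dbp, Hlf, Tef, Nr1d1, Per1, Per2, Per3, Ciart, Cry1 and Arntl) and are 10 of the 19439 genes listed in at least 1 library. The choice was made with earlier results of these data known. Their counts and medians beside those of all genes are therefore descriptions and no test. All 10 were listed in every library and all 10 passed the filter on low counts, which kept 15782 genes.

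The mice were BALB/c, 8 weeks old, and every group received imiquimod (IMQ) on the ear, a drug that activates innate immune receptors and gives psoriasis-like inflammation in mouse skin. During that treatment 10 µl of lysophosphatidylcholine (LPC, 10 mM), a phospholipid lacking a fatty acid chain, or 10 µl of saline as vehicle was injected into the ear skin each day, planned over 6 days. Both treatments had 4 mice killed on day 4 and 4 on day 7, and a group is named by treatment and day. No group without IMQ was analysed here, so values from both treatments are values in IMQ-treated skin. The labels used here do not state the hour of killing, which bears on genes that cycle through the day.

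In the mammalian clock, ARNTL (BMAL1) pairs with CLOCK and binds E-box sequences to switch on the Per and Cry genes, whose proteins then block that pair. NR1D1 (REV-ERBα) represses Arntl and closes a further loop, and CIART is a repressor of the CLOCK and ARNTL pair. DBP, HLF and TEF are PAR bZIP transcription factors that bind D-box sequences, carry the rhythm to metabolic genes and feed back on Per genes, where NFIL3 competes for the same sites as a repressor. Skin cells, keratinocytes and fibroblasts among them, hold such clocks.

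The start-site regions of members are shown because the factors above act through short motifs. RefSeq promoter windows (GRCm38.p6) matched 9 of the 10 members at 12 start sites, and Per2 had no entry. Within the 250 bases before each start, both strands were searched for the E-box CACGTG, the D-box TTATGTAA, the cAMP response element TGACGTCA and the nuclear receptor half-site AGGTCA, none of which overlapped another in the members. The E-box was found at 5 of the 12 member starts (Ciart, Cry1, Per1 and both starts of Tef) and in 6.02% of 32851 mouse promoter windows. The D-box was found in Per3 and in 0.819% of all windows, the cAMP response element in Hlf and in 1.55%, and the half-site in Per1 and in 14.0%. None of the 4 motifs was found in the windows of Dbp, Nr1d1 or Arntl, which says only that those letters are not in them. 6 of the windows follow, read on the gene's strand up to the base before the start, with matched motifs in capitals: Ciart, Hlf and Dbp, which were lower with LPC at day 7 by the test below, Per3, Cry1 and 1 start of Per1.
Ciart, chr3:95882229-95882478, minus strand, 3 E-boxes: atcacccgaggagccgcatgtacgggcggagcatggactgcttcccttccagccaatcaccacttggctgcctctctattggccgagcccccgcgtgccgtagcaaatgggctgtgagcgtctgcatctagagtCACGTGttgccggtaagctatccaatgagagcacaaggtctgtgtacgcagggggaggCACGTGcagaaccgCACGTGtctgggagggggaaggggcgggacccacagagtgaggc
Hlf, chr11:90390918-90391167, minus strand, cAMP response element: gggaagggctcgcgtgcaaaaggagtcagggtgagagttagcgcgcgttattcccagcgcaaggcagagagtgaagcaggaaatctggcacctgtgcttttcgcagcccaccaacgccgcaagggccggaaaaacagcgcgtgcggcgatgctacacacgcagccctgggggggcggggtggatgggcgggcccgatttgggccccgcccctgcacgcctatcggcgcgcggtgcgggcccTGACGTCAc
Dbp, chr7:45704997-45705246, plus strand, no match: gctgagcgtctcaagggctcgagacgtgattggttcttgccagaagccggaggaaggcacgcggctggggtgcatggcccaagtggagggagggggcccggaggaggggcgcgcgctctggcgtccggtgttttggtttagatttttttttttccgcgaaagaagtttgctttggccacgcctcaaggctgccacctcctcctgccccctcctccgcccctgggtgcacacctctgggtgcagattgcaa
Per3, chr4:151044666-151044915, minus strand, 2 D-boxes: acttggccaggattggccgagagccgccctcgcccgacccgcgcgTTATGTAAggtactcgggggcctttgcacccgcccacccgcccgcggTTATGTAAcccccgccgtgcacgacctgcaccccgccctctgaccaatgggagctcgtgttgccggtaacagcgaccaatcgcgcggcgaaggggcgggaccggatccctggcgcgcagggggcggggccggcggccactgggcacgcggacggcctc
Cry1, chr10:85185055-85185304, minus strand, E-box: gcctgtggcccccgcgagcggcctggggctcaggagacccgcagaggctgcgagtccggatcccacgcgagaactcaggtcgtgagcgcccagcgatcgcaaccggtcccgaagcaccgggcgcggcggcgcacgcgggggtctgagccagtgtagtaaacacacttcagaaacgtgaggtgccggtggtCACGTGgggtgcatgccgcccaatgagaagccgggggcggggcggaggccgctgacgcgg
Per1, chr11:69098699-69098948, plus strand, E-box and reversed half-site: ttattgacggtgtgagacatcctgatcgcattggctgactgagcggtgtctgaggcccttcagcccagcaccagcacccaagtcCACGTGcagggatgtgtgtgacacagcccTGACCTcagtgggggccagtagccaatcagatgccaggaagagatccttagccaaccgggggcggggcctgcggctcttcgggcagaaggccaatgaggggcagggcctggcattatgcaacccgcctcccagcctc
The Ciart E-boxes begin 116, 58 and 44 bases before the start, and the Per3 D-boxes 205 and 158 bases before it. The E-box begins 60 bases before the start in Cry1 and 166 in Per1, and the Hlf element begins 9 bases before its start. A motif match here describes the sequence and is no evidence of binding in these samples.

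Levels between genes were compared as FPKM, which is scaled to transcript length. Per1 was the most abundant member at 54.0 ± 11.2 FPKM (mean ± SD over 16 libraries), followed by Nr1d1 at 46.6 ± 12.7 and Tef at 38.1 ± 17.1. Dbp averaged 17.4 ± 8.99 FPKM and Ciart 13.5 ± 8.13. These middle members spread widely between libraries. Cry1 stood at 10.4 ± 4.90 FPKM and Arntl at 9.08 ± 2.38. Per2 at 7.27 ± 3.64, Per3 at 6.83 ± 3.69 and Hlf at 6.39 ± 4.05 FPKM were the least abundant. Tef and Dbp, next to each other in that order, differed by more than the SD of either gene. Every other neighbouring pair of means was closer together than the SDs of its genes. An SD over libraries of all 4 groups does not measure how well an order is known, and no order was tested. In LPC day 7 skin Per1 (43.0 ± 8.53), Nr1d1 (33.6 ± 13.0) and Tef (18.3 ± 5.82) also had the highest mean FPKM. Cry1 (9.28 ± 5.07), Arntl (8.02 ± 1.26) and Dbp (7.87 ± 4.28) lay within their SDs of each other there, Ciart was at 4.85 ± 1.07 and Hlf had the lowest mean, 1.82 ± 0.321 (n = 4). Expected counts behind these values ran from 106.63 (Dbp in 1 LPC day 7 mouse) to 6853 (Per1) per library, so counting error is small beside the spread between mice.

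Libraries summed to between 18704197 and 20131513 expected counts. Keratinocyte genes were abundant in all of them, with summed levels of 11615 to 34883 CPM (counts scaled to library size) for 7 basal and 5557 to 27032 CPM for 7 suprabasal markers. Skeletal muscle transcripts varied widely: the mean log2 CPM of 19 muscle genes was 6.83 to 10.7 in vehicle day 4, 3.55 to 7.14 in LPC day 4, 6.53 to 9.09 in vehicle day 7 and 4.05 to 9.78 in LPC day 7. In the last group mice 1 and 3 lay at 5.43 and 4.05 and mice 2 and 4 at 9.45 and 9.78, and the level of 12 adipocyte genes split the same mice (2.10 and 2.95 against 6.16 and 8.36). In such bulk samples fewer cells of a type and less RNA per cell cannot be told apart. Exons of 4 members overlap a gene on the opposite strand, and whether the counting used strand is not stated: 539 of 2993 exonic bases of Dbp are shared with Sphk2, 263 of 3077 of Nr1d1 with Thra, 193 of 7867 of Tef with Gm17597 and 33 of 7523 of Arntl with Gm45355. At day 7 with LPC the log2 fold change was -0.11 ± 0.13 (SE) for Sphk2 and -0.35 ± 0.25 for Thra, neither called.

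At day 7, ear skin that received LPC held fewer transcripts of PAR bZIP genes and of the repressor gene Ciart than vehicle skin. Dbp, Hlf and Ciart fell to between 0.32 and 0.35 of their vehicle levels, Tef and Per3 were lower in every LPC mouse without passing the threshold, and Arntl, the activator, averaged 24.3 ± 3.24 CPM with vehicle and 24.4 ± 4.47 with LPC (SD, n = 4). By edgeR's quasi-likelihood test with Benjamini-Hochberg adjustment over all genes (called at an adjusted p under 0.05), 3 of the 10 members fell and none rose. Of all 15782 genes tested 3.83% were called in this comparison and 1.44% fell. The median log2 fold change was -0.83 over the members and 0.02 over all genes. 5 members were lower in all 4 LPC mice than in all 4 vehicle mice, which held for 5.16% of all genes, and none was higher without overlap.

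Dbp (Entrez 13170, chr7:45705100-45710203, GRCm38), the best known PAR bZIP output gene, measured 31.2, 31.4, 31.3 and 62.3 CPM in vehicle day 7 mice 1 to 4 and 9.87, 20.1, 5.81 and 17.3 CPM in LPC day 7 mice 1 to 4. Its groups did not overlap, and vehicle mouse 4 stood far above its 3 group mates, which agreed closely. The means were 39.0 ± 15.5 and 13.3 ± 6.59 CPM (SD, n = 4), and the log2 fold change was -1.55 ± 0.35 (SE, adjusted p = 0.0289 by edgeR).

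Hlf (Entrez 217082, chr11:90336535-90390917), a PAR bZIP factor, measured 18.1, 27.9, 25.6 and 50.4 CPM with vehicle and 11.3, 8.28, 13.1 and 10.3 CPM with LPC. All LPC mice were below all vehicle mice and lay close together. Hlf fell by 1.502 ± 0.34 on the log2 scale (edgeR adjusted p = 0.029), from a mean of 30.5 to 10.8 CPM.

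Tef (Entrez 21685, chr15:81802673-81826863), the most abundant of the 3 PAR bZIP genes, measured 111.3, 125.5, 134.9 and 254.3 CPM with vehicle and 62.6, 103.9, 64.5 and 96.2 CPM with LPC. Its groups did not overlap, but the log2 difference of -0.94 ± 0.25 did not pass the threshold (edgeR adjusted p = 0.0506).

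Ciart (Entrez 229599, chr3:95878500-95882257), the repressor with 3 E-boxes in the window above, measured 17.2, 22.2, 22.5 and 47.5 CPM with vehicle and 12.4, 7.18, 6.90 and 8.72 CPM with LPC. Every LPC mouse was below every vehicle mouse. Ciart fell by 1.64 ± 0.38 on the log2 scale (edgeR adjusted p = 0.0313), the largest change among the 10 members in this comparison.

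Among the Period genes, whose proteins form the repressor complex with cryptochromes, Per3 (Entrez 18628, chr4:150997018-151044707) measured 40.7, 50.4, 42.1 and 97.96 CPM with vehicle and 15.3, 36.3, 22.3 and 25.5 CPM with LPC. The groups did not overlap, and the log2 difference was -1.21 ± 0.34 (edgeR adjusted p = 0.0598, not called). Per2 (Entrez 18627, chr1:91415977-91459351) measured 38.8, 42.9, 24.4 and 50.9 CPM with vehicle and 33.1, 20.4, 22.3 and 18.7 CPM with LPC. Vehicle mouse 3 lay within the LPC range, and the log2 difference of -0.73 ± 0.32 was not called (edgeR adjusted p = 0.219). Per1 (Entrez 18626, chr11:69095108-69109965), which hormones and stress signals also induce directly, overlapped widely: 246.0, 285.4, 219.1 and 335.2 CPM with vehicle against 261.5, 177.6, 177.4 and 268.2 CPM with LPC (log2 difference -0.30 ± 0.18, edgeR adjusted p = 0.409).

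Nr1d1 (Entrez 217166, chr11:98767932-98775377), the nuclear receptor that represses Arntl, was even in vehicle mice at 137.5, 147.8, 165.0 and 164.5 CPM and split with LPC at 129.4, 63.0, 69.6 and 145.3 CPM. LPC mice 1 and 4 were near or within the vehicle range and mice 2 and 3 far below it, and the log2 difference of -0.59 ± 0.24 was not called (edgeR adjusted p = 0.187).

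Cry1 (Entrez 12952, chr10:85131700-85185054), a core repressor, measured 14.1, 17.7, 12.6 and 21.9 CPM with vehicle and 51.3, 13.7, 36.4 and 14.8 CPM with LPC. LPC mice 1 and 3 were above all vehicle mice, and mice 2 and 4 lay within the vehicle range. Its log2 difference was 0.81 ± 0.35 (edgeR adjusted p = 0.215, not called), with a mean on the opposite side to the PAR bZIP genes. Arntl (Entrez 11865, chr7:113178471-113314126) measured 20.2, 25.1, 23.9 and 28.0 CPM with vehicle and 27.0, 18.1, 28.1 and 24.4 CPM with LPC, fully overlapping, at a log2 difference of 0.01 ± 0.17 (edgeR adjusted p = 0.99).

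**Figure D1:**
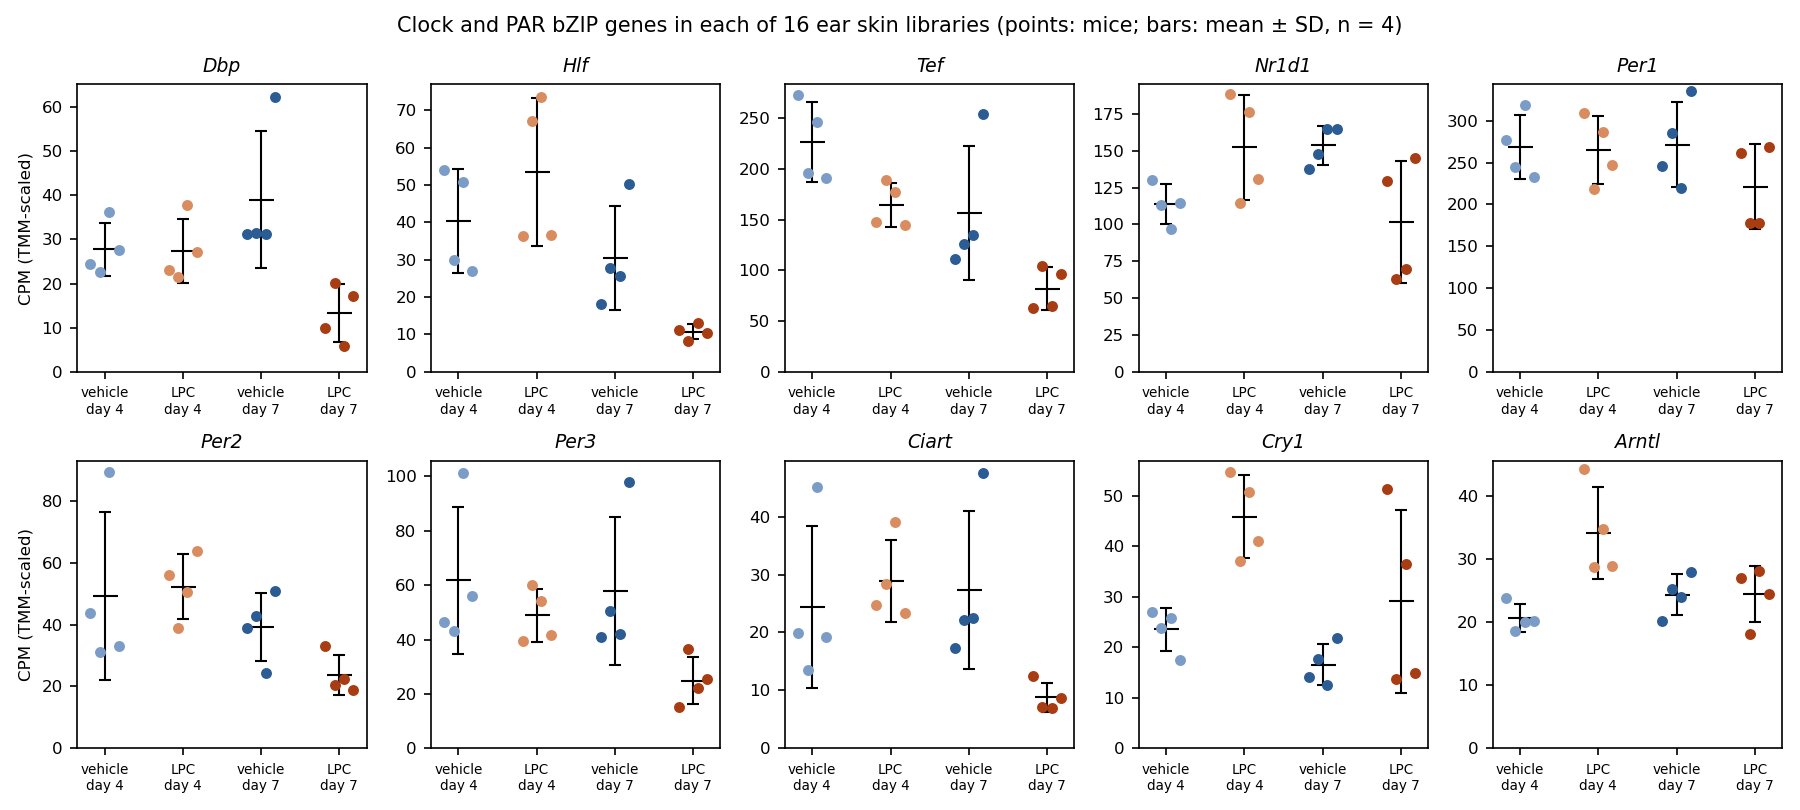
TMM-scaled CPM (vertical axes from 0) of the 10 genes in the 4 groups; each point is 1 mouse, and the bars give the mean ± SD of 4 mice. Dbp, Hlf, Tef, Per3 and Ciart lie lower in all 4 LPC day 7 mice than in all 4 vehicle day 7 mice, and Cry1 and Arntl lie higher in all 4 LPC day 4 mice than in all 4 vehicle day 4 mice.

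The 3 calls at day 7 depended on single libraries. None of the 3 was called without vehicle day 7 mouse 2, 3 or 4 or without LPC day 7 mouse 1, with adjusted p-values from edgeR of 0.0537, 0.0534, 0.0972 and 0.0845 for Dbp, 0.0604, 0.0557, 0.0972 and 0.0775 for Hlf and 0.0601, 0.0612, 0.11 and 0.0601 for Ciart; the log2 fold changes then lay between -1.24 and -1.65 for Dbp, -1.15 and -1.58 for Hlf and -1.23 and -1.85 for Ciart. Without LPC mouse 3 the adjusted p was 0.0508 for Dbp and 0.0706 for Ciart, without mouse 2 it was 0.0507 for Hlf and 0.0552 for Ciart, and without mouse 4 it was 0.0501 for Ciart. A fit of the 8 day 7 libraries alone called no member. The sign of all 3 log2 fold changes was negative under each of 28 alternatives.

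Suprabasal keratinocyte markers and neutrophil markers moved in the same comparison. All 7 suprabasal genes were lower and 4 fell, against 1.44% of all genes. Their summed levels were 21221 to 27032 CPM in vehicle and 5557 to 10504 CPM in LPC day 7 mice. Of 7 neutrophil genes tested 6 were higher and 1 lower, and 1 rose, against 2.38% of all genes. Their mean log2 CPM was 0.91 to 2.52 with vehicle and 3.10 to 5.16 with LPC. All 12 adipocyte genes, all 7 endothelial genes and 10 of 11 macrophage genes were also higher, none of them called. The part of these cells in the members' values was not tested. Muscle levels overlapped between the day 7 groups. With the muscle level as a covariate 5 members were called, all lower, against 3 without it. Without LPC mice 2 and 4, the mice with high muscle levels, 4 members fell and Cry1 rose (log2 fold change 1.44, edgeR adjusted p = 0.00176). The muscle covariate and this smaller set of mice also raised the number called among all genes, with counts in the closing section on processing. Without mice 1 and 3 a single member was called and the Cry1 difference turned to -0.18.

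**Figure D2:**
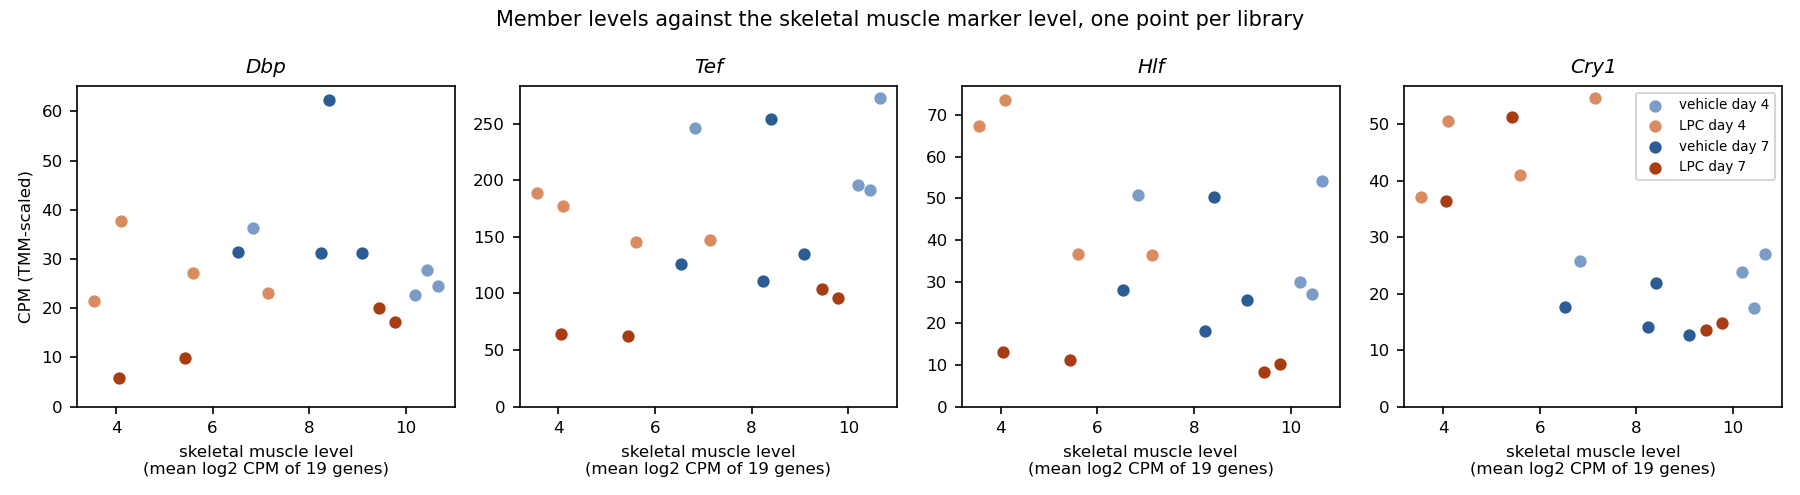
CPM of Dbp, Tef, Hlf and Cry1 (vertical axes) against the mean log2 CPM of 19 skeletal muscle genes (horizontal axes), 1 point per library, coloured by group. Hlf is between 8.28 and 13.1 CPM in all 4 LPC day 7 mice at muscle levels from 4.05 to 9.78, whereas Cry1 is 51.3 and 36.4 CPM in the LPC day 7 mice with low muscle levels and 13.7 and 14.8 CPM in those with high levels.

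The plot against muscle levels shows how the LPC day 7 mice divided. Mice 1 and 3, with low muscle levels, had Dbp at 9.87 and 5.81 CPM and Tef at 62.6 and 64.5 CPM, below the 20.1 and 17.3 CPM of Dbp and the 103.9 and 96.2 CPM of Tef in mice 2 and 4. Hlf divided them the other way and over a narrow range, at 11.3 and 13.1 CPM in mice 1 and 3 and 8.28 and 10.3 CPM in mice 2 and 4. As a within-mouse measure that needs no library scaling, log2 Dbp minus log2 Arntl (CPM) was 0.63, 0.32, 0.38 and 1.15 in vehicle day 7 mice 1 to 4 and -1.44, 0.15, -2.25 and -0.50 in LPC day 7 mice, with no overlap. In vehicle day 4 mice it was 0.05, 0.28, 0.85 and 0.46. In LPC day 4 mice it was -0.94, -0.41, 0.12 and -0.08, where LPC mouse 3 lay within the vehicle range. The measure is built from the Dbp and Arntl values of the same mice, so it adds no separate result, and it was not tested.

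At day 4 no member was called, and 0.139% of all genes were. Arntl and Cry1, an activator and a repressor of the loop, were nevertheless higher in every LPC mouse than in every vehicle mouse. Arntl measured 23.8, 18.6, 20.1 and 20.1 CPM in vehicle day 4 mice 1 to 4 and 44.2, 28.6, 34.7 and 28.8 CPM in LPC day 4 mice. All LPC mice were above all vehicle mice (log2 difference 0.72 ± 0.17, edgeR adjusted p = 0.0652). Cry1 measured 27.0, 23.8, 25.9 and 17.4 CPM with vehicle and 54.6, 37.1, 50.6 and 41.0 CPM with LPC, again without overlap, at 0.96 ± 0.35 (edgeR adjusted p = 0.154). Tef was the only member lower without overlap, at 272.6, 195.9, 246.2 and 191.1 CPM with vehicle and 147.6, 188.7, 176.9 and 145.2 CPM with LPC (-0.46 ± 0.25, edgeR adjusted p = 0.327). Groups that did not overlap in the higher direction made up 7.42% of all genes and in the lower direction 8.67%.

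The other 7 members overlapped at day 4. Dbp was 24.5, 22.7, 36.3 and 27.7 CPM with vehicle and 23.0, 21.5, 37.7 and 27.2 CPM with LPC, nearly the same set of values in both groups (log2 difference -0.02 ± 0.34). Hlf was 54.1, 30.0, 50.8 and 27.0 CPM against 36.5, 67.2, 73.7 and 36.7 CPM (0.40 ± 0.33). Nr1d1 was 130.5, 113.6, 96.7 and 114.9 CPM against 188.6, 114.3, 176.4 and 130.6 CPM (0.42 ± 0.24). In both genes the LPC mice reached higher values, but the ranges crossed. Per1, Per2, Per3 and Ciart had log2 differences between -0.34 and 0.24, each with an edgeR adjusted p of at least 0.608. All 19 muscle genes were lower in LPC than in vehicle skin at day 4 and none of them passed the threshold (median log2 fold change -4.12). Basal keratinocyte markers were higher with LPC without overlap in their mean log2 CPM, at 9.54 to 9.86 with vehicle and 9.89 to 10.2 with LPC, and none of the 7 was called. In summed level the groups overlapped, at 11615 to 18702 CPM with vehicle and 17052 to 18923 CPM with LPC. All 12 adipocyte genes (median log2 fold change -2.55), all 10 hair shaft genes, 9 of 11 macrophage genes and 6 of 7 endothelial genes were also lower with LPC. Of 7 fibroblast genes 6 were higher and 1 lower. None of these was called. The part of any of these cells in the Arntl and Cry1 values was not tested. Cry1 was called in fits without LPC day 7 mice 2 and 4, without mice 1 and 3, and with the day 4 libraries alone. Each of those fits also called many more of all genes than the main fit, with counts in the closing section on processing. With the muscle level as a covariate no gene of the whole table was called. That level was 6.83 to 10.7 in vehicle and 3.55 to 7.14 in LPC day 4 mice, so it nearly follows the treatment. Such a fit cannot tell the LPC difference and the muscle level apart. Arntl was called in 8 of 28 alternatives, among them each fit that left out 1 LPC day 7 mouse, a group outside this comparison that enters it through the shared spread; its adjusted p ran from 0.00578 to 0.563.

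Between days 4 and 7 with LPC, all 10 members were lower on the later day and 4 of them fell: Hlf, Tef, Per2 and Ciart. None rose. The edgeR test called 11.0% of all genes in this comparison, and 4.13% fell. 7 members were lower at day 7 without overlap, which held for 8.22% of all genes, and the median log2 fold change was -0.99 over the members and 0.03 over all genes. Hlf went from a mean of 53.5 ± 19.7 CPM to 10.8 ± 2.03 (SD, n = 4), which is 0.201 of the earlier level (log2 fold change -2.31 ± 0.35 with its SE, edgeR adjusted p = 0.00322), the largest of any member in any of the 5 comparisons, and it was called under all 28 alternatives. Tef fell by 1.01 ± 0.25 on the log2 scale (edgeR adjusted p = 0.024). Ciart, at 24.8, 28.4, 39.0 and 23.4 CPM in LPC day 4 mice, fell by 1.72 ± 0.38 (edgeR adjusted p = 0.0158).

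Per2 measured 56.0, 38.7, 50.6 and 63.8 CPM in LPC day 4 mice, all above the day 7 range of 18.7 to 33.1 CPM. It fell by 1.15 ± 0.32 on the log2 scale (edgeR adjusted p = 0.037) and was the least stable of the 4: its call was lost without any 1 of the 4 LPC day 4 mice (adjusted p 0.0747, 0.0576, 0.0815 and 0.0749 without mice 1 to 4) and without LPC day 7 mouse 2, 3 or 4 (0.0849, 0.0556 and 0.0858). Tef lost its call without LPC day 4 mouse 2 (0.0691) or 3 (0.0648) and Ciart without LPC day 4 mouse 3 (0.0532), the fit in which the number of called members fell to 1. Dbp (log2 difference -1.04 ± 0.35, edgeR adjusted p = 0.0654), Per3 (-0.97 ± 0.34, 0.0739) and Arntl (-0.48 ± 0.17, 0.0802) did not overlap between the days but were not called. Nr1d1, Cry1 and Per1 overlapped, with log2 differences of -0.58 ± 0.24, -0.66 ± 0.35 and -0.26 ± 0.18. On this contrast all 19 muscle genes were higher at day 7, the direction opposite to the members, and 1 of them rose by the test. Suprabasal keratinocyte markers mostly went the same way as the members: 6 of 7 were lower and 2 of them fell. The remaining 1 was higher without overlap. The summed level of these markers was 10861 to 19389 CPM in LPC day 4 mice and 5557 to 10504 CPM in LPC day 7 mice. All 10 hair shaft genes tested were also lower, none of them called. Macrophage and endothelial markers went the other way, where 5 of 11 and 4 of 7 rose, against 6.87% of all genes. The part of these cells in the members' values was not tested. With the muscle level as a covariate 2 of the 4 calls were kept, Hlf and Tef. Per2 (log2 fold change -0.93, edgeR adjusted p = 0.0913) and Ciart (-1.43, 0.0517) lost theirs. That fit also called fewer of all genes than the main fit.

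With vehicle, no member was called between the days, and 0% of all genes were: edgeR called 0 of 15782, with 2050 at an unadjusted p under 0.05, and DESeq2 called 235 genes and no member. Nr1d1 was the only member without overlap, at 96.7 to 130.5 CPM on day 4 and 137.5 to 165.0 CPM on day 7 (log2 difference 0.43 ± 0.24, edgeR adjusted p = 0.474); 3.45% of all genes were higher in this way. Tef was lower on day 7 in the mean (-0.53 ± 0.25, edgeR adjusted p = 0.382), but vehicle day 7 mouse 4 at 254.3 CPM lay within the day 4 range. Per3 and Ciart each had a single high mouse in either vehicle group: mouse 3 on day 4 (101.3 and 45.03 CPM) and mouse 4 on day 7 (97.96 and 47.5 CPM). Per2 was also highest in mouse 3 on day 4, at 89.3 CPM against 31.1 to 43.7 CPM in its group mates. The median log2 fold change over the members was -0.04. All 19 muscle, 12 adipocyte and 10 hair shaft genes were lower on day 7 (medians -1.6, -1.1 and -3.5). All 7 fibroblast genes (median 1.2) and 10 of 11 macrophage genes were higher. None of these was called, and the part of such cells in the members' values was not tested.

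**Figure D3:**
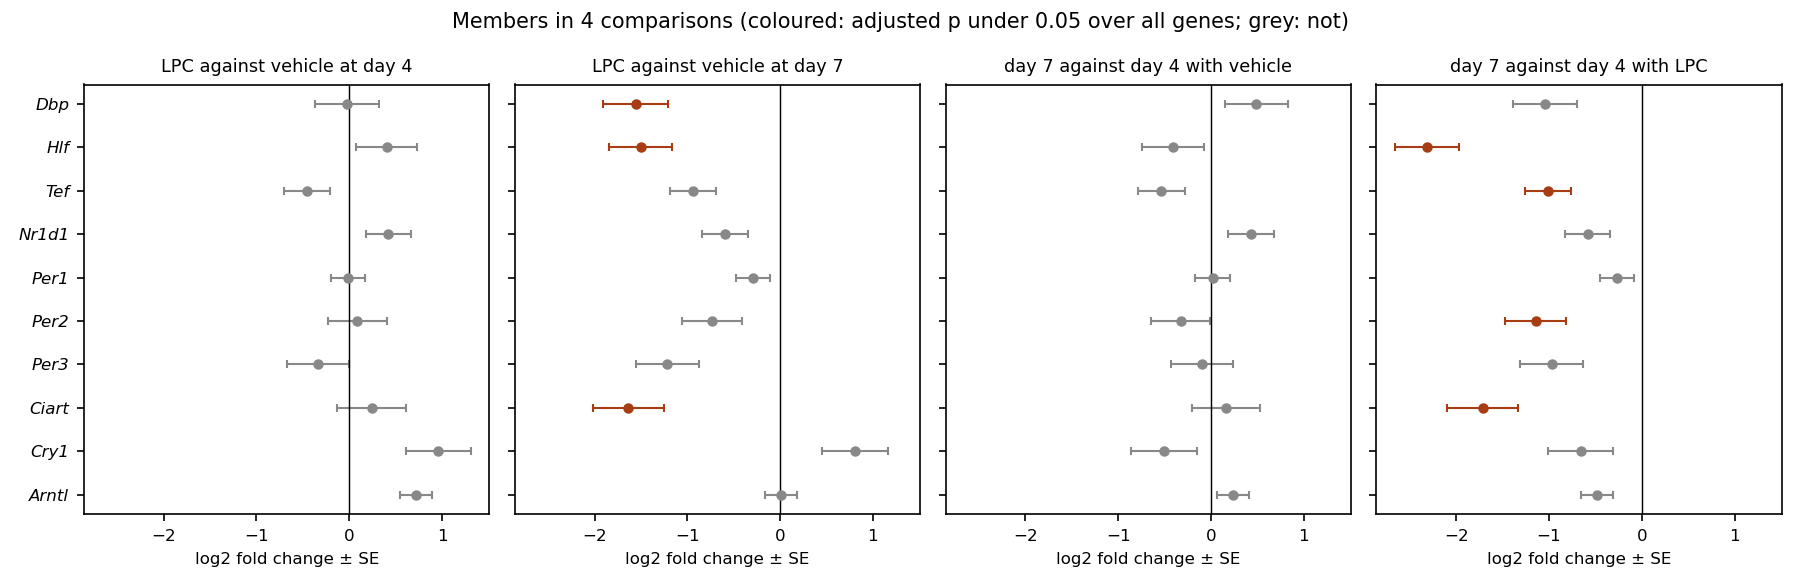
Log2 fold changes ± SE (horizontal axes) of the 10 genes from the edgeR fit in 4 comparisons; coloured points have an adjusted p under 0.05 over all genes. 3 members are called for LPC against vehicle at day 7 and 4 for day 7 against day 4 with LPC, all below 0, and none in the other panels.

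Tested as an interaction, the LPC effect at day 7 minus that at day 4 was negative for all 10 members and called for none; 0% of all genes were called by edgeR, 2674 had an unadjusted p under 0.05 and DESeq2 called 582, with 2 members among them, Hlf and Ciart. Values for the members were -1.90 ± 0.47 for Hlf (adjusted p = 0.149), -1.88 ± 0.53 for Ciart (0.165), -1.53 ± 0.49 for Dbp (0.186), -1.01 ± 0.34 for Nr1d1 (0.187) and -0.72 ± 0.24 for Arntl (0.188), all by edgeR on the log2 scale. The other 5 had adjusted p-values of at least 0.356. The LPC effects on the members at day 4 and at day 7 are therefore not shown to differ by the edgeR test.

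Of the 12 other genes of the clock loop, which hold the remaining activators, nuclear receptors and repressors, 1 rose and 1 fell with LPC at day 7, where 2.38% of all genes rose and 1.44% fell. Nfil3, the repressor that competes with PAR bZIP factors for D-boxes, measured 42.4, 25.6, 30.0 and 22.8 CPM in vehicle day 7 mice 1 to 4 and 184.2, 70.0, 108.3 and 84.5 CPM in LPC mice. Every LPC mouse exceeded every vehicle mouse, with mouse 1 highest. Nfil3 rose by 1.89 ± 0.29 on the log2 scale (edgeR adjusted p = 0.0103), while Dbp, Hlf and Ciart fell in the same mice. In the fit of the day 7 libraries alone Nfil3 was not called either (adjusted p = 0.0538). Rora, a nuclear receptor that activates Arntl at the sites NR1D1 represses, measured 134.4, 125.7, 147.3 and 159.8 CPM with vehicle and 51.0, 75.3, 66.5 and 72.8 CPM with LPC. It fell by 1.09 ± 0.21 on the log2 scale (edgeR adjusted p = 0.0167) and was not called without vehicle day 7 mouse 4 (0.0534) or LPC mouse 1 (0.0552). Clock, the partner of ARNTL, was 75.7 ± 9.81 CPM with vehicle and 74.8 ± 20.4 with LPC (SD, n = 4; log2 difference -0.02 ± 0.18).

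From day 4 to day 7 with LPC, Nfil3 rose (log2 fold change 1.08 ± 0.28, edgeR adjusted p = 0.0279) and 3 of the 12 fell: Rora (-1.15 ± 0.21, 0.00696), the cryptochrome Cry2 (-0.72 ± 0.19, 0.0305) and the repressor Bhlhe41 (-1.61 ± 0.40, 0.0247). Of all genes 6.87% rose and 4.13% fell there. Rora kept its call under all 28 alternatives. The others did not: Nfil3 lost it without LPC day 4 mouse 1, 2 or 3 (0.0602, 0.0847 and 0.0721) or LPC day 7 mouse 1 (0.0548), Cry2 without LPC day 4 mouse 1, 2 or 3 (0.0788, 0.0514 and 0.0818) or LPC day 7 mouse 2 (0.0763), and Bhlhe41 without LPC day 4 mouse 1, 2 or 3 (0.0526, 0.0575 and 0.0715). The list's median was -0.17 there, against -0.99 for the members. At day 4 none of the 12 was called; Bhlhe40, an E-box repressor, was nearest, at 93.9 to 113.6 CPM with vehicle and 157.3 to 329.5 CPM with LPC (1.26 ± 0.35, edgeR adjusted p = 0.0737), followed by Timeless (0.47 ± 0.18, 0.179).

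**Figure D4:**
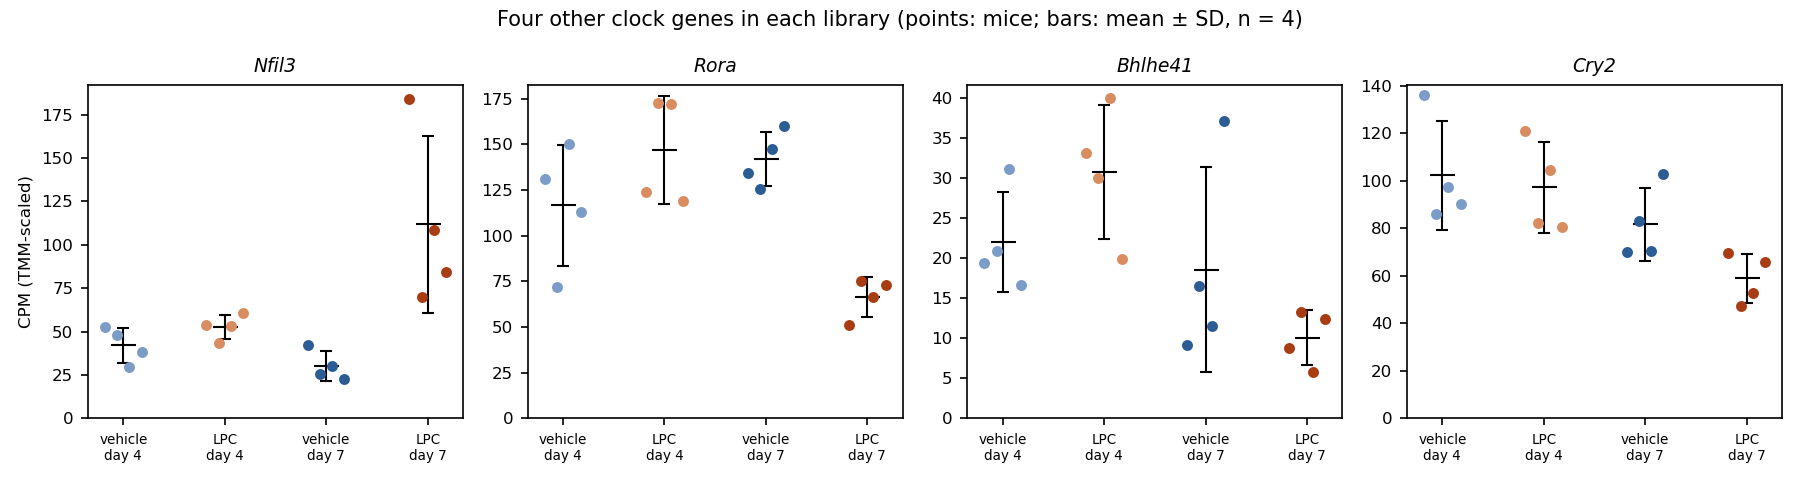
TMM-scaled CPM (vertical axes from 0) of Nfil3, Rora, Bhlhe41 and Cry2, the genes of the 12 that were called in a comparison, with 1 point per mouse and bars for the mean ± SD of 4 mice. Nfil3 is higher in all 4 LPC day 7 mice than in the mice of every other group, and Rora is lower in them than in all 4 vehicle day 7 mice.

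**Figure D5:**
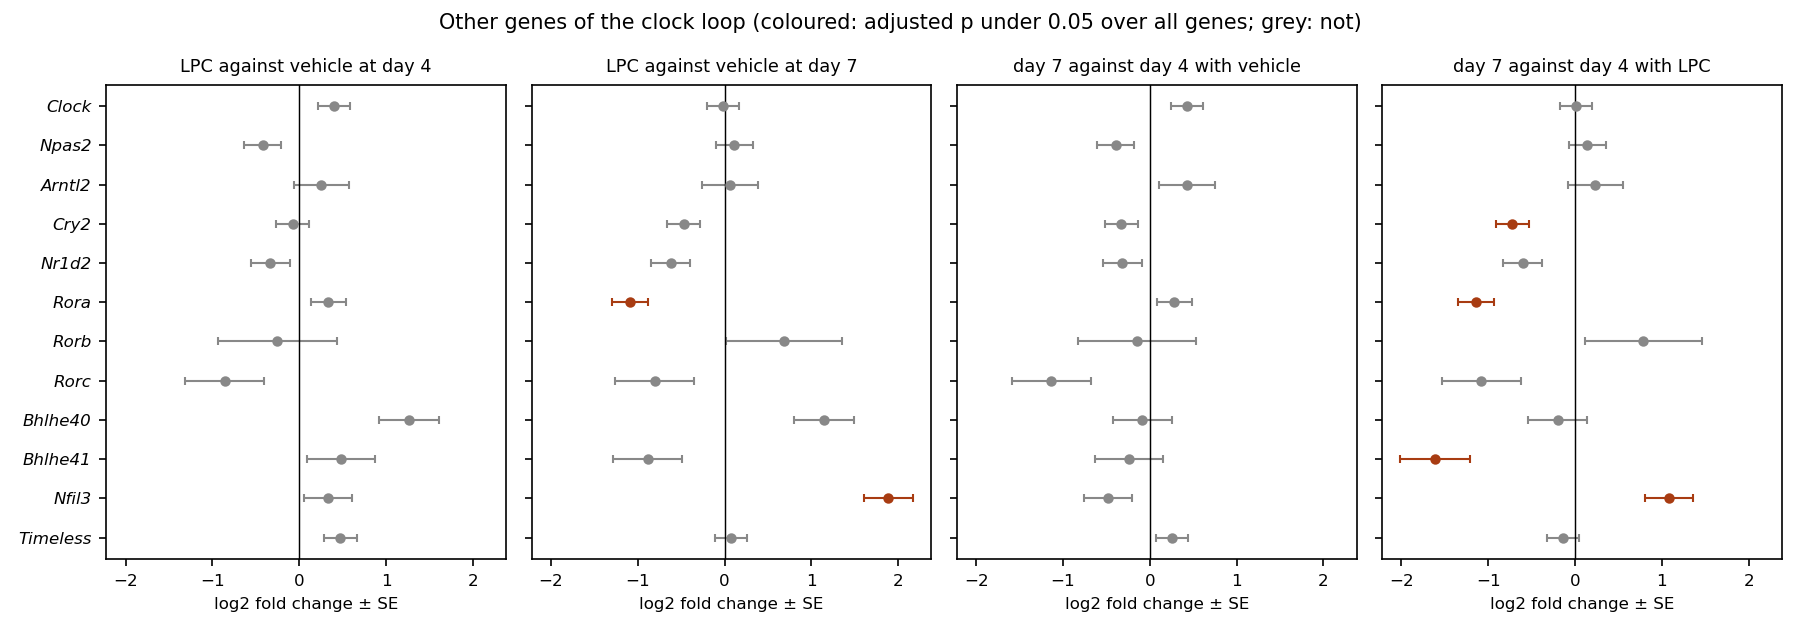
Log2 fold changes ± SE (horizontal axes) of the 12 other clock loop genes in 4 comparisons, coloured where the edgeR adjusted p was under 0.05. Nfil3 and Rora are called on opposite sides of 0 for LPC against vehicle at day 7, and Rorb, the least abundant, has the widest SE.

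Among genes that set the turnover of clock proteins, none was called with LPC at day 4 or at day 7. At day 4 the smallest p-values belonged to Prkaa2, a catalytic subunit of AMP-activated kinase that is abundant in muscle (log2 difference -1.75 ± 0.45, edgeR adjusted p = 0.0684), and Usp2, a deubiquitinase that is also a clock output (-1.10 ± 0.39, 0.138). The casein kinase gene Csnk1e, whose product phosphorylates PER proteins, had a log2 difference of -0.43 ± 0.19 at day 7 (edgeR adjusted p = 0.217).

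Of 10 clock output genes outside the PAR bZIP family, 1 was called: Alas1, the first enzyme of haem synthesis, rose between days with LPC (50.1 ± 4.39 to 97.3 ± 27.2 CPM, log2 fold change 0.96 ± 0.20, edgeR adjusted p = 0.0129) under all 28 alternatives. In that comparison 6.87% of all genes rose. The list as a whole had a median log2 fold change of 0.01 there and 0.29 with LPC at day 7, where the members' medians were -0.99 and -0.83. With LPC at day 7 the smallest p-values were those of Cdkn1a, a cell cycle inhibitor (1.05 ± 0.29, edgeR adjusted p = 0.056), and Por, the reductase that serves cytochrome P450 enzymes (0.62 ± 0.18, 0.0626), both higher. At day 4 they were those of Klf10 (0.66 ± 0.21, 0.114) and Usp2.

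Glucocorticoid-responsive and immediate early genes were followed because hormones and acute signals also act on Per1 and other clock genes. With LPC at day 7, 2 of 13 glucocorticoid-responsive genes rose: Dusp1, a phosphatase of MAP kinases, from 118.2 ± 31.1 to 581.8 ± 352 CPM (log2 fold change 2.30 ± 0.35, edgeR adjusted p = 0.0103), and Angptl4, a lipoprotein lipase inhibitor, from 31.4 ± 7.52 to 98.3 ± 27.8 CPM (1.65 ± 0.36, 0.0256). That list had 9 genes higher and 4 lower with a median of 0.82, and 2.38% of all genes rose; Tsc22d3 (-0.49 ± 0.51) and Fkbp5 (-0.15 ± 0.38) were among those lower, neither called. Angptl4 lost its call without any 1 vehicle day 7 mouse (0.0521, 0.0563, 0.0565 and 0.0887 without mice 1 to 4) or LPC mouse 1 (0.0603). Of 10 immediate early genes 2 rose at day 7, Dusp1, which is in both lists, and Fos, from 37.4 ± 16.9 to 352.8 ± 307 CPM (3.24 ± 0.52, edgeR adjusted p = 0.011). In the fit of the day 7 libraries alone neither Dusp1 nor Fos was called (adjusted p = 0.0538 and 0.0582). All 10 were higher with LPC at each day, with medians of 1.05 at day 4 and 1.30 at day 7. At day 4 Atf3, a stress-induced factor, rose from 23.1 ± 3.15 to 127.1 ± 46.2 CPM (2.46 ± 0.44, edgeR adjusted p = 0.0459), a call lost in 9 of 16 fits without 1 mouse; 0.0950% of all genes rose there. The glucocorticoid list went both ways at day 4, with 7 genes higher and 6 lower and none called. Errfi1 (1.04 ± 0.24, edgeR adjusted p = 0.0617) and Dusp1 (1.24 ± 0.34, 0.0721) had the smallest p-values, while Pdk4 (-2.34 ± 0.72, 0.103) and Tsc22d3 (-1.14 ± 0.51, 0.243) were lower. Per1 had log2 differences of -0.01 ± 0.18 and -0.30 ± 0.18 with LPC at days 4 and 7, neither called. The part of hormones or acute signals in these values was not tested. Between days with vehicle all 13 glucocorticoid-responsive genes were lower on day 7 (median -0.75) and none passed. The nearest were Angptl4 (-1.44 ± 0.36, edgeR adjusted p = 0.191) and Pdk4, a kinase that restrains glucose oxidation (-2.52 ± 0.73, 0.212). All 19 muscle and all 12 adipocyte genes were also lower there, and the part of such cells in these values was not tested.

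Within groups, the members were compared over the 16 libraries after removing each group's mean. Of 45 pairs 39 had a positive Pearson r, with a median of 0.365, and none passed a permutation test within groups (100000 permutations) with Benjamini-Hochberg adjustment over 45 pairs, by r or by Spearman's rho. The highest was Tef with Per3, r = 0.774 and rho = 0.656 (permutation p = 0.00613 and 0.0214, adjusted 0.0651 and 0.154); r was 0.587 without the 2 libraries farthest from the median of Tef, 0.464 within day 4 and 0.924 within day 7. Dbp with Tef followed at r = 0.734 and rho = 0.662 (permutation p = 0.0138 and 0.0356, adjusted 0.0773 and 0.178). Its r was 0.567 without the 2 farthest libraries, 0.179 within day 4 and 0.865 within day 7. Hlf with Ciart had r = 0.712 and rho = 0.718 (permutation p = 0.00705 and 0.00606, adjusted 0.0651 and 0.103), and r of 0.569 without the 2 farthest libraries, 0.645 within day 4 and 0.793 within day 7. The lowest pair was Dbp with Cry1, at r = -0.39.

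The tested genes most like Dbp in log2 CPM over the 16 libraries were Srcin1 (Pearson r = 0.93), Rasal1 (0.922), Reck (0.918), Ccdc17 (0.913) and Dkk2 (0.91), all closer to Dbp than any member was. Among the members Per3 was closest to Dbp (0.84), followed by Ciart (0.789) and Tef (0.766). Those most like Arntl were Xpo6 (0.922), Sos2 (0.919), Map3k8 (0.878), Tsc22d2 (0.87) and Scaf8 (0.87), with Cry1 the closest member (0.733). These r values are descriptions over libraries that share group, depth and tissue composition. Since the genes were picked for likeness over all 16 libraries, group differences included, their own changes follow from that choice and are not given as results.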

How the data were processed

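Ear skin of 16 mice gave 1 library each, grouped by the treatment and day in the sample titles; the deposited files' names give other days, which were not used. Per the labels' protocols, the authors sequenced total RNA on a BGISEQ-500 instrument, aligned reads to GRCm38 with Bowtie2 and deposited RSEM expected counts and FPKM per gene; neither tool versions nor a strand setting is stated. RSEM shares reads among similar genes by a model. The titles number the samples 1 to 4 in each group, taken here as separate mice, and p-values measure the spread between them. A gene not listed in a library was taken as 0.

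Expected counts were rounded and filtered with filterByExpr in edgeR 4.0.16 (R 4.3.3), leaving 15782 genes. With TMM scaling, all 16 libraries entered 1 quasi-likelihood model whose terms were the 4 group means (12 residual degrees of freedom, biological coefficient of variation 35%). Adjusted p-values are Benjamini-Hochberg over all 15782 genes, CPM is TMM-scaled and log2 CPM has a prior count of 2. The edgeR test gives no SE, so the SE of a log2 fold change was derived from it. It is the absolute log2 fold change divided by the square root of the test's F statistic. The test was run on simulated data, in which mice of a group did not differ in tissue composition. That check therefore does not cover such differences. Correlations used SciPy 1.17.1. Promoters and gene positions came from RefSeq (GRCm38.p6) and exon overlaps from GENCODE. Alternatives included DESeq2 1.42.0, limma 3.58.1 on log2 FPKM, other filters and scalings, covariates and left-out mice. The members and gene lists were chosen with earlier results of these data known. Named genes are all members and each called gene of a pathway list or else up to 2 with the smallest p. The 5 genes most correlated with Dbp and with Arntl are also named. Clock, Tsc22d3, Fkbp5, Sphk2 and Thra, and Pdk4 at day 4, were named outside that rule. The result for 1 gene of the lists is not reported here.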

Additional observations from a re-analysis of the deposited data

Results flagged for a closer look

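One value stood apart from its group: Dbp in vehicle day 7 mouse 4 was 62.31 CPM, while the other 3 mice of that group lay at 31.2, 31.4 and 31.3 CPM. The gap to its nearest group mate was 0.991 of the group's whole range, above the 95% critical value of Dixon's test for 4 samples. Chance flags about 1 in 20 such groups, and 1 of 40 sets of member and group was flagged. The same mouse also had the highest CPM of its group for Hlf (50.4), Tef (254.3), Per1 (335.2), Per2 (50.9), Per3 (97.96), Ciart (47.5), Cry1 (21.9) and Arntl (28.0). Without it the log2 fold change of Dbp with LPC at day 7 was -1.24 (edgeR adjusted p = 0.0972) in place of -1.55.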

How the results depend on the processing

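Of the 10 members, the numbers called in the main fit were 0 (LPC at day 4), 3 (LPC at day 7), 0 (days with vehicle), 4 (days with LPC) and 0 (difference of the LPC effect). No called value changed sign under any alternative. DESeq2 called 1, 5, 0, 6 and 2 members, and among all genes 1109, 1438, 235, 3093 and 582 in place of 22, 604, 0, 1736 and 0. With limma on log2(FPKM + 0.1) and log2(FPKM + 1), 7 members were called between days with LPC; 38 and 40 genes were called at day 4, and 1 gene for the difference with the larger pseudocount. These FPKM fits changed the balance of directions: with log2(FPKM + 0.1), 246 genes rose and 276 fell at day 7 (376 and 228 in the main fit), and 583 rose and 1035 fell between days with LPC (1084 and 652). Median-of-ratios scaling called 1 gene for the difference and no filter 8 genes at day 4. Fits of only the compared groups called 2 members and 1333 genes at day 4, 0 members and 45 genes at day 7 and 1100 genes between days with LPC. The muscle covariate gave 0 genes at day 4, 5 members and 1156 genes at day 7, and 2 members and 834 genes between days with LPC; the adipocyte covariate gave 0 genes at day 4 and 954 at day 7. Chosen after seeing the data, leaving out LPC day 7 mice 2 and 4 gave 2 members and 1696 genes at day 4, 5 and 3376 at day 7, and 1 and 68 for the difference. Leaving out mice 1 and 3 gave 2 and 1763 at day 4, 1 member at day 7, 4330 genes between days with LPC, and 4 and 2798 for the difference. The cause of these shifts was not tested.

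With the replicate number as a block, 2 genes were called at day 4, 1 member and 351 genes at day 7, and 901 genes between days with LPC. Over all groups no pairing by number was evident: 9 of 24 same-numbered pairs correlated over 0.1, with r from -0.596 to 0.539. Between vehicle and LPC, mice 1 to 4 had r of 0.114, 0.099, 0.294 and 0.539 at day 4. At day 7 these were -0.079, -0.596, -0.348 and 0.148. Such correlations cannot exclude a pairing.

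Leaving out 1 mouse at a time, members called ranged from 0 to 1 (day 4), 0 to 4 (day 7), 1 to 6 (days with LPC) and 0 to 1 (difference), and all genes from 0 to 683, 111 to 712, 0 to 205 (days with vehicle), 518 to 2207 and 0 to 214. Members without overlap between days with vehicle numbered 1 to 2, and correlated pairs 0 to 2, with 1 pair on log2(FPKM + 0.1).

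Values that changed sign were uncalled. At day 4 with the muscle covariate, log2 fold changes were 0.39 (Dbp), -0.14 (Hlf), -0.36 (Per2) and -0.24 (Ciart), with the adipocyte covariate 0.23 (Dbp) and -0.24 (Per2), and without LPC day 7 mice 1 and 3 0.004 (Dbp) and 0.013 (Per1). At day 7 Arntl was -0.089 and -0.081 on FPKM, -0.018 with the block, -0.006 with the muscle covariate and -0.15 without mice 1 and 3, and Cry1 was -0.18 in that fit. Between days with vehicle Per1 was -0.012 with median-of-ratios scaling, -0.011 with DESeq2, -0.037 and -0.036 on FPKM, -0.008 in the fit of those groups, -0.006 without mice 2 and 4 and -0.001 without mice 1 and 3. The Cry1 difference was 0.26 and 0.13 with the muscle and adipocyte covariates and 0.48 without mice 2 and 4. Leaving out 1 mouse, ranges that crossed 0 were -0.22 to 0.11 (Dbp), -0.10 to 0.07 (Per1) and -0.082 to 0.52 (Per2) at day 4, -0.073 to 0.12 (Arntl) at day 7, -0.10 to 0.11 (Per1), -0.49 to 0.12 (Per2), -0.47 to 0.24 (Per3) and -0.24 to 0.63 (Ciart) between days with vehicle, and -0.58 to 0.083 (Cry1) for the difference.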
